A study of Homo sapiens with 4 samples.

Results

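The genes described here are 33 genes of cholesterol and fatty acid synthesis that belong to the SREBP pathway. They were taken as a list of names, matched by Ensembl identifier to current symbols, and each had to reach at least 10 counts in at least 2 libraries. All 33 passed this filter, among 15356 genes tested and 60725 genes in the count table. The lowest count of a listed gene in any library was 341 and the highest 40378.

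RNA-seq was performed on RPE1 SunTag cells, a human retinal pigment epithelial line immortalised with telomerase that carries the SunTag reporter system, grown in medium with 10% fetal bovine serum. Control cells received the Silencer Select Negative Control No. 2 siRNA and TOP2B knockdown cells a Dharmacon ON-TARGETplus pool against TOP2B, a type II DNA topoisomerase. Both groups were transfected with 10 nM siRNA, transfected again after 48 h, and harvested 72 h after the second transfection, on day 5. Each group had 2 biological replicates. Each group received its own siRNA reagent, so the effect of losing TOP2B and any other effect of the TOP2B pool cannot be told apart. All libraries came from this 1 line.

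The libraries held between 20310259 and 23887013 counts. CPM values are counts relative to library size, scaled between libraries by the TMM method. TOP2B itself stood at 155 and 144 CPM in control cells and fell to 15.3 and 13.3 CPM, 9.58% of its former level (log2(fold change) -3.38). Markers of mature retinal pigment epithelium were largely missing, with 0 counts of RPE65, TYR and TTR in every library, whereas the lineage factors MITF (38.2 to 44.8 CPM) and OTX2 (11.2 to 13.4 CPM) were present, and none of the 5 testable markers of that list was called by edgeR or DESeq2 (1 had an unadjusted p below 0.05 in edgeR). All 5 lay higher in both knockdown libraries than in both controls (median log2(fold change) 0.44), beside 27.7% of all tested genes. BEST1, PMEL and SERPINF1 had only 7 to 47 counts per library, and MITF (0.19) and OTX2 (0.16) had the smallest values. The epithelial keratins KRT8 (-0.35) and KRT18 (-0.39) lay lower in both knockdown libraries than in both controls, beside 26.6% of all tested genes. Neither was called, and KRT8 was abundant at 854 to 1347 CPM. For VIM, also read as a marker of the RPE1 line, the groups overlapped (-0.03). The part of these markers in the results was not tested. Bulk RNA cannot tell fewer cells of a kind from less RNA in each cell.

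Sterol regulatory element-binding proteins (SREBPs) are transcription factors made as membrane proteins of the endoplasmic reticulum. When sterols are low, the escort protein SCAP carries them to the Golgi, where proteases release the active fragment. When sterols are plentiful, the INSIG proteins hold SCAP and its cargo back. SREBF2 encodes SREBP-2, best known for the genes of cholesterol synthesis, and SREBF1 encodes SREBP-1, whose isoforms are best known for the genes of fatty acid synthesis. Mevalonate made from acetyl-CoA is the precursor of squalene, which is closed into lanosterol and trimmed to cholesterol. Fatty acid synthesis draws on the same acetyl-CoA.

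SREBPs bind a DNA element that often lies beside a site for NF-Y, the factor that reads CCAAT. The stretches given here are the 200 bases upstream of an annotated start site (RefSeq, build GRCh38.p14), written in the direction of the gene. They cover the genes of the list whose level changed and that have an entry in the promoter table, together with SREBF2 and INSIG1 as regulators. Capitals mark matches to TCACNCCAC, a word of the sterol regulatory element, or to CCAAT, which reads ATTGG when it lies on the opposite strand. The stretches lie at chr22:41832905-41833104 (plus strand), chr5:43313413-43313612 (minus), chr7:155297678-155297877 (plus), chr20:34874789-34874988 (plus), chr17:17836987-17837186 (minus) and chr3:47475942-47476141 (minus).
SREBF2: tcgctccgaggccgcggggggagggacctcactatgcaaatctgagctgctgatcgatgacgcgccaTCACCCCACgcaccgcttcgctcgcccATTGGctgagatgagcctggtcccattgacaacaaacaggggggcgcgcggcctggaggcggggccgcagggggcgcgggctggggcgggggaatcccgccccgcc
HMGCS1: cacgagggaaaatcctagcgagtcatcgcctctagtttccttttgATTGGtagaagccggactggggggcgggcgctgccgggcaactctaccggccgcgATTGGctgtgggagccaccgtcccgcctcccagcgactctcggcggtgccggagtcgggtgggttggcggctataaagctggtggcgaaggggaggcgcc
INSIG1: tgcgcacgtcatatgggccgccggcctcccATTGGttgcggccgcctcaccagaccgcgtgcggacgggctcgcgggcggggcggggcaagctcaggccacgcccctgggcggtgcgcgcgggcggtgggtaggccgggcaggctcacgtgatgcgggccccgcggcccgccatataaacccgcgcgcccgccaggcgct
ACSS2: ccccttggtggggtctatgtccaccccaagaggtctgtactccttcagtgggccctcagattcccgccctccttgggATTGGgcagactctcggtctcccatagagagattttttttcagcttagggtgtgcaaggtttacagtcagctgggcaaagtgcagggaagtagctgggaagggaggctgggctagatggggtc
SREBF1: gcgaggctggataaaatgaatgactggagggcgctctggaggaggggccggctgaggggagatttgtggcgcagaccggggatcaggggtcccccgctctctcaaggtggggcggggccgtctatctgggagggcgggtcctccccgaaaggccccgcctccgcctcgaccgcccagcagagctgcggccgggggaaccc
SCAP: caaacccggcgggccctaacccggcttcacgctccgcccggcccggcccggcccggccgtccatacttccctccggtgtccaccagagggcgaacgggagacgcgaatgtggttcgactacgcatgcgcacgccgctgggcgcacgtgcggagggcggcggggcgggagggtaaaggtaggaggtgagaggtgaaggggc

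SREBF2 was the only listed gene of the promoter table to hold TCACNCCAC, 133 bases before the start, and it also held CCAAT 106 bases before the start. HMGCS1 held CCAAT at 155 and 100 bases before the start, INSIG1 at 170 and ACSS2 at 123. The stretches of SREBF1 and SCAP held neither word. A match describes these letters only and is not a binding site, and a missing match says only that the letters are not in this window. Where the table held several starts of a gene, the one with the most matches is shown, and the further starts of HMGCS1 and ACSS2 held neither word.

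Across the list, promoters of 300 bases (250 before to 50 after the start) were found for 29 of the 33 genes, 40 promoters in all. ACAT2, FDFT1, SQLE and FASN had no entry. CCAAT on either strand was present in 25 of the 40 promoters (62.5%), against 34.6% of all 35116 promoters in the table and 34.5% of the 16085 promoters of tested genes. At least 2 matches were present in 16 of the 40 (40%), against 10.8% and 12.0%. By gene, 21 of 29 listed genes (72.4%) and 42.9% of 11037 tested genes held the word. TCACNCCAC was present in 2.5% of the listed promoters and 1.13% of all promoters. A looser form, NCANNCCAC, which contains the stricter word, was present in 11 of the 40 promoters (27.5%), in 10 genes, against 17.1% of all promoters. These shares are descriptions. Several promoters belong to the same gene and overlap, so they are not independent.

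**Figure D1:**
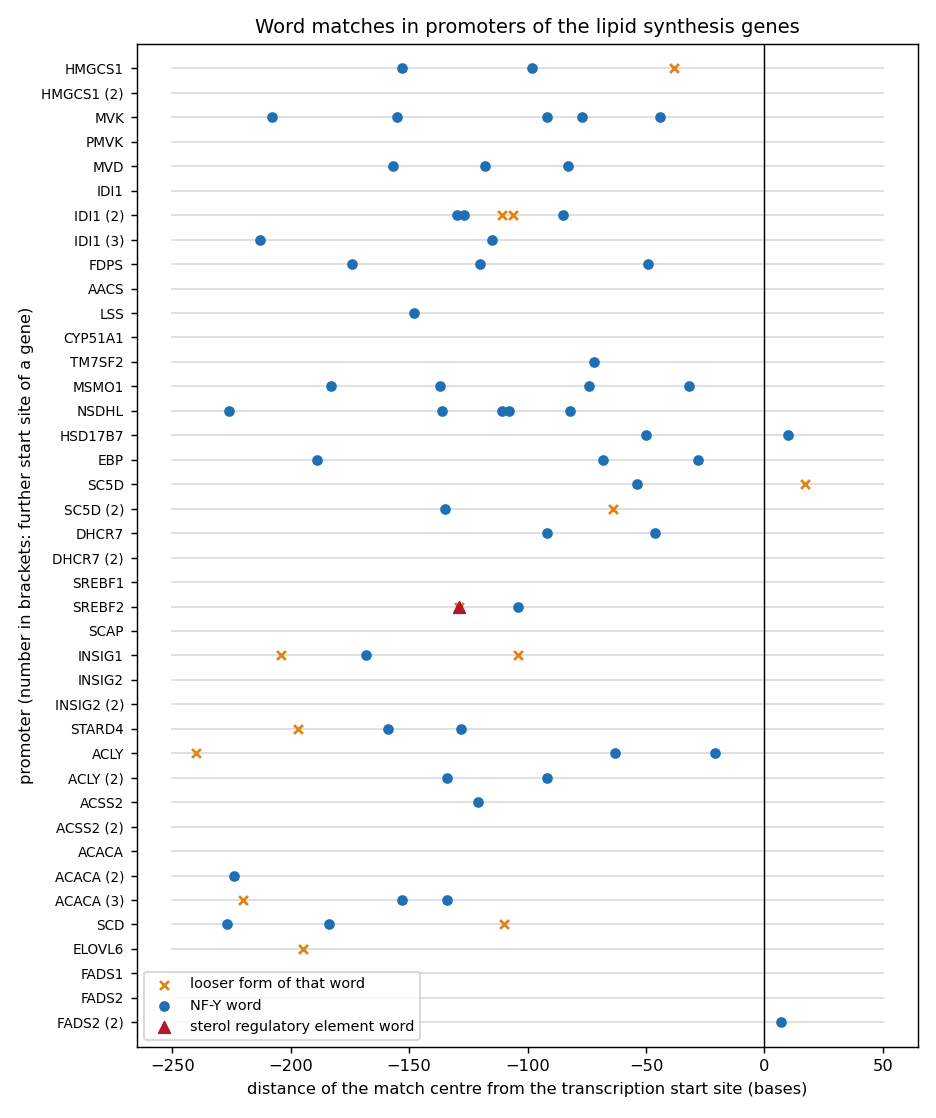
Position of word matches on either strand in the 40 promoters of listed genes, as distance of the match centre from the start site (bases), with 1 line per promoter and circles for CCAAT, a triangle for TCACNCCAC and crosses for the looser NCANNCCAC. Circles appear in 25 of the 40 promoters, mostly before the start, and SREBF2 carries the only triangle.

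After TOP2B depletion, 4 of the 33 genes rose and 1 fell at an adjusted p below 0.05 in edgeR's quasi-likelihood test. SREBF1, SCAP, ACSS2 and FASN were higher and HMGCS1 was lower. Among all 15356 genes tested, 6.66% were called higher, 4.18% lower and 10.8% in either direction. The median log2(fold change) of the list was 0.18, against -0.0029 over all genes tested, and 21 of the 33 values were positive. Both knockdown libraries lay above both control libraries for 11 of the 33 genes, beside 27.7% of all tested genes, and below them for 7, beside 26.6% of all tested genes. The groups overlapped for the other 15 genes. An unadjusted p below 0.05 was reached by 8 of the 33 genes and by 4040 of all genes tested.

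**Figure D2:**
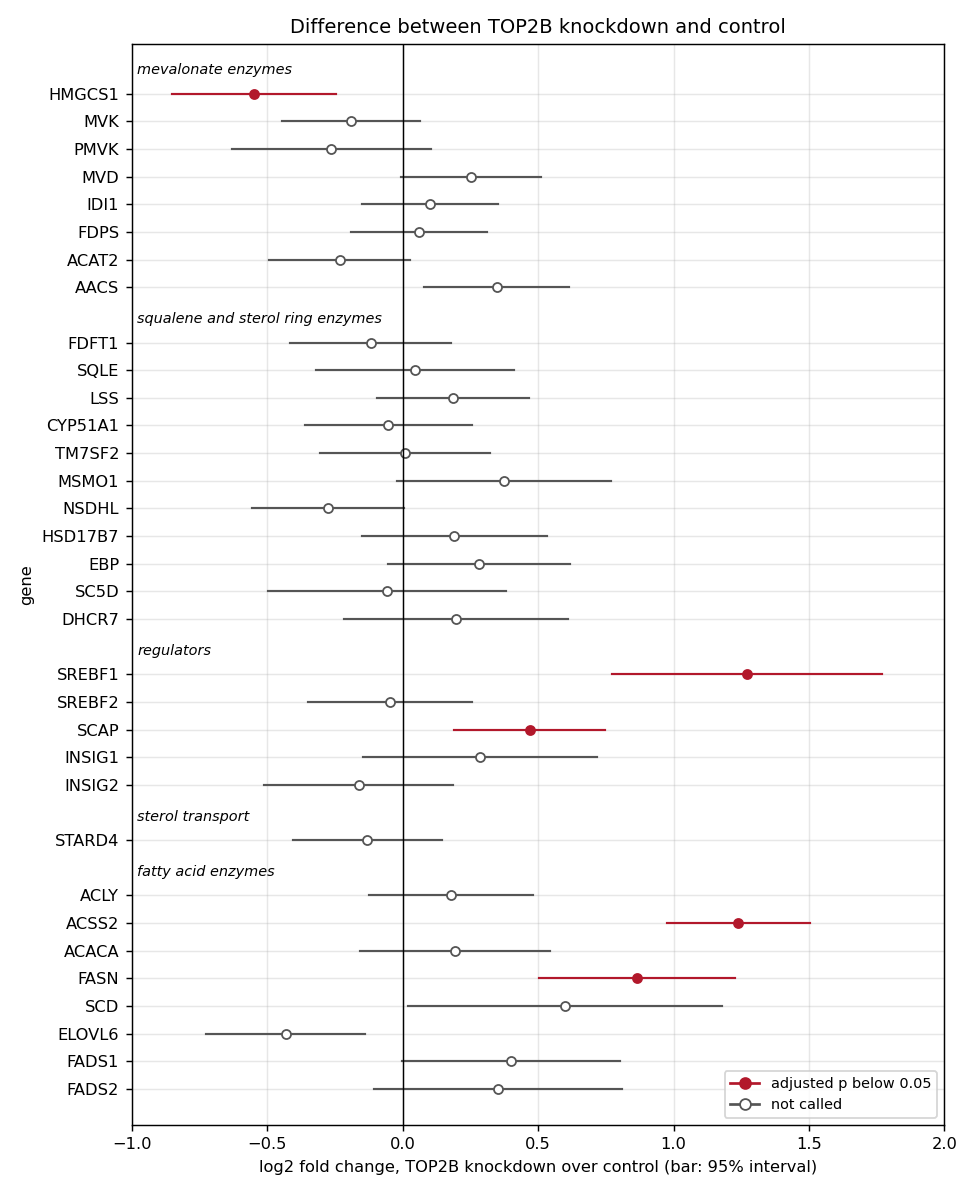
Log2(fold change) of TOP2B knockdown over control for each of the 33 genes, ordered by role, with 95% confidence intervals from edgeR. SREBF1 (1.27), ACSS2 (1.24), FASN (0.86) and SCAP (0.47) were called higher and HMGCS1 (-0.55) lower, while the intervals of most other genes include 0.

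Among the 5 regulators, SREBF1 and SCAP were called higher, beside 6.66% of all genes tested. SREBF1 (chr17:17810399-17837002, minus strand, ENSG00000072310) had 44.7 and 26.4 CPM in the control group and 98.1 and 73.5 CPM in the knockdown group. Both knockdown libraries were above both controls, although the control replicates themselves differed widely. The mean rose from 35.5 ± 12.9 to 85.8 ± 17.4 CPM (SD, n = 2), a log2(fold change) of 1.27 with a standard error of 0.22 (2.41-fold, adjusted p = 0.00752). In fits without one library the value of SREBF1 lay between 0.94 and 1.70. Exons of SREBF1 overlap a gene on the opposite strand, RAI1, over 6.75% of their bases.

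SREBF2, the paralogue of SREBF1, had 235 and 214 CPM in the control and 233 and 201 CPM in the knockdown replicates. The groups overlapped, and the log2(fold change) was -0.05 (95% interval -0.35 to 0.26, adjusted p = 0.866). Per kilobase of the canonical transcript, the SREBF2 level exceeded the SREBF1 level 4.91 and 7.57 times in the control replicates and 2.22 and 2.56 times in the knockdown replicates. The balance between both factors thus differed in the same direction in every pairing of a knockdown with a control library, with SREBF2 the more abundant transcript in all 4 libraries. The reads counted on SREBF1 do not separate its isoforms.

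SCAP, the escort of the SREBPs (chr3:47413681-47477126, minus strand, ENSG00000114650), had 73.1 and 66.6 CPM in the control and 103 and 90.1 CPM in the knockdown replicates. The groups did not overlap and the mean rose from 69.9 ± 4.58 to 96.7 ± 9.32 CPM (SD, n = 2), a log2(fold change) of 0.47 with a standard error of 0.13 (1.38-fold, adjusted p = 0.0412). This call was near the threshold, and it was lost without control replicate 1 (adjusted p = 0.0635), control replicate 2 (0.238) or knockdown replicate 1 (0.269), in edgeR fits where the lone library is assumed to vary like the other group.

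Neither retention factor was called. INSIG1, itself a well-known SREBP target, had 246 and 174 CPM in the control and 294 and 218 CPM in the knockdown replicates, a log2(fold change) of 0.29 (95% interval -0.14 to 0.72, adjusted p = 0.391). INSIG2 had 29.1 and 22.2 CPM in the control and 24.3 and 21.6 CPM in the knockdown replicates (log2(fold change) -0.16, adjusted p = 0.56). The libraries of both groups overlapped for each INSIG gene.

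Of the 8 fatty acid enzymes, 2 were called higher and none lower, beside 6.66% and 4.18% of all genes tested. Of the 8 values, 7 were positive, beside 7640 of 15356 over all genes tested. Their median log2(fold change) was 0.38 (0.20 to 0.63 in fits without one library). ACSS2 makes acetyl-CoA from acetate (chr20:34872146-34927962, plus strand, ENSG00000131069). It had 20.9 and 20.4 CPM in the control and 48.9 and 48.6 CPM in the knockdown replicates. The replicates almost coincided, and the groups were far apart. The mean rose from 20.7 ± 0.37 to 48.8 ± 0.20 CPM (SD, n = 2), a log2(fold change) of 1.24 with a standard error of 0.12 (2.36-fold, adjusted p = 0.000624). In fits without one library the value of ACSS2 lay between 1.22 and 1.26.

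FASN, the synthase that builds palmitate (chr17:82078338-82098294, minus strand, ENSG00000169710), had 382 and 339 CPM in the control and 735 and 578 CPM in the knockdown replicates. The groups did not overlap. The mean rose from 361 ± 30.2 to 656 ± 112 CPM (SD, n = 2), a log2(fold change) of 0.86 with a standard error of 0.16 (1.82-fold, adjusted p = 0.0102). Without knockdown replicate 1 the value was 0.68 and the adjusted p 0.0655. No exon base of ACSS2, FASN or SCAP overlaps another annotated gene.

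SCD, the desaturase that introduces the first double bond into saturated fatty acids, was the most abundant transcript of the list. It had 1322 and 784 CPM in the control and 1905 and 1284 CPM in the knockdown replicates. Knockdown replicate 2 lay below control replicate 1, so the groups overlapped, and the log2(fold change) of 0.60 (standard error 0.26) did not pass the test (adjusted p = 0.177). Without control replicate 1, SCD was called with a value of 1.02 (adjusted p = 0.00849), but the value was 0.27 without control replicate 2 (adjusted p = 0.692) and 0.29 without knockdown replicate 1 (adjusted p = 0.678). SCD alone made up 19.8% and 14.5% of the summed CPM of the 33 genes in the control and 23.8% and 19.8% in the knockdown replicates.

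ELOVL6, the elongase that extends palmitate, was the only fatty acid enzyme with a negative value. It had 158 and 142 CPM in the control and 120 and 102 CPM in the knockdown replicates, so the groups did not overlap (log2(fold change) -0.43, standard error 0.13), but the adjusted p was 0.0656. The Wald test of DESeq2 gave it an adjusted p of 0.0272. The desaturases FADS1 (0.40, adjusted p = 0.195) and FADS2 (0.35, adjusted p = 0.313), the citrate lyase ACLY (0.18) and the acetyl-CoA carboxylase ACACA (0.19) had positive log2(fold change) values that were not called.

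**Figure D3:**
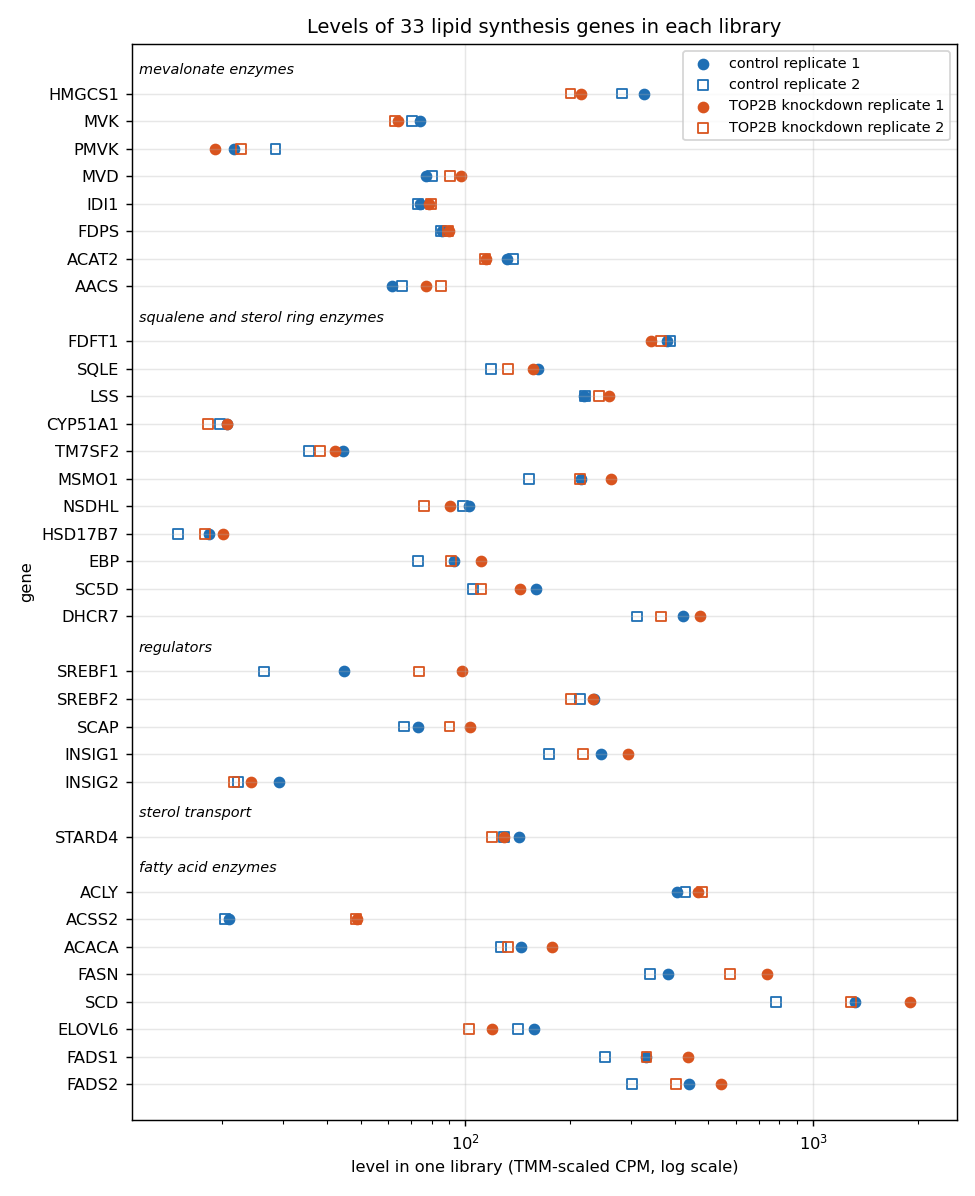
Level of each of the 33 genes in each library (TMM-scaled CPM, log scale), grouped by role, with filled circles for replicate 1 and open squares for replicate 2. For ACSS2 the control points (20.9 and 20.4) and the knockdown points (48.9 and 48.6) form separate pairs, whereas for SCD knockdown replicate 2 (1284) lies below control replicate 1 (1322).

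Of the 8 mevalonate enzymes, 1 was called lower and none higher, beside 4.18% and 6.66% of all genes tested. Their median log2(fold change) was -0.06. HMGCS1, the synthase that makes HMG-CoA (chr5:43287470-43313512, minus strand, ENSG00000112972), had 326 and 282 CPM in the control and 215 and 201 CPM in the knockdown replicates. The groups did not overlap. The mean fell from 304 ± 30.8 to 208 ± 9.93 CPM (SD, n = 2), a log2(fold change) of -0.55 with a standard error of 0.14 (1.46-fold lower, adjusted p = 0.0309). The call was lost without control replicate 1 (adjusted p = 0.201), knockdown replicate 1 (0.112) or knockdown replicate 2 (0.183). Exons of HMGCS1 overlap a gene on the opposite strand (ENSG00000261604) over 37.7% of their bases, and whether the counting used strand is not given in the sources used here.

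The other mevalonate enzymes stayed between -0.26 and 0.35 on the log2 scale, and none was called. AACS, which activates acetoacetate, had the largest positive value (0.35, adjusted p = 0.0976), with both knockdown libraries (76.9 and 85.2 CPM) above both controls (61.5 and 65.9 CPM). The decarboxylase MVD (0.25), the isomerase IDI1 (0.10) and the farnesyl diphosphate synthase FDPS (0.06) were also positive. The kinases MVK (-0.19) and PMVK (-0.26) and the thiolase ACAT2 (-0.23) were negative. Exon bases overlap TCP1 for 22.2% of ACAT2, RUSC1-AS1 for 18.6% of FDPS and IDI2-AS1 for 15.0% of IDI1.

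With condition as the only term, none of the 11 squalene and sterol ring enzymes was called by edgeR or DESeq2 on all 4 libraries, none reached an unadjusted p below 0.05 in edgeR, and their median log2(fold change) was 0.05. The groups overlapped for 8 of them, beside 7020 of the 15356 genes tested. SQLE, the squalene epoxidase, had 162 and 118 CPM in the control and 157 and 133 CPM in the knockdown replicates, so that both groups covered the same range (0.05, adjusted p = 0.895). MSMO1, which oxidises the methyl groups of the sterol ring, had the largest absolute value of these enzymes, with 215 and 153 CPM in the control and 262 and 214 CPM in the knockdown replicates (0.37, adjusted p = 0.217). Control replicate 1 and knockdown replicate 2 of MSMO1 were nearly equal, and without control replicate 1 the gene was called (adjusted p = 0.0438). In fits without one library the median of the 11 enzymes ranged from -0.09 to 0.28.

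The rest of this role group lay between -0.27 and 0.28. The isomerase EBP (0.28), DHCR7, which performs the last reduction to cholesterol (0.20), HSD17B7 (0.19) and the cyclase LSS (0.19) were positive. The dehydrogenase NSDHL (-0.27), the squalene synthase FDFT1 (-0.12), the desaturase SC5D (-0.06) and the demethylase CYP51A1 (-0.05) were negative. Values of CYP51A1 and EBP may be uncertain. In GENCODE v44, 74.1% and 36.4% of their exon bases overlap other annotated genes, mostly on the same strand. The counts were made on Gencode v24, where these overlaps were not examined. HSD17B7 has a near-identical pseudogene copy that could share its reads. STARD4, a carrier of cholesterol between membranes, had 143 and 129 CPM in the control and 129 and 119 CPM in the knockdown replicates (-0.13, adjusted p = 0.549).

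TM7SF2 encodes a sterol reductase, and the same reaction is performed by the lamin B receptor LBR, a protein of the inner nuclear membrane. TM7SF2 had 44.5 and 35.5 CPM in the control and 42.3 and 38.2 CPM in the knockdown replicates, a log2(fold change) of 0.01 (95% interval -0.31 to 0.32, adjusted p = 0.979). LBR had 199 and 147 CPM in the control and 173 and 128 CPM in the knockdown replicates (-0.20, standard error 0.18, adjusted p = 0.53). Neither gene of the pair was called and the groups overlapped for both. Per kilobase of canonical transcript the LBR level was 1.88 and 1.74 times that of TM7SF2 in the control and 1.72 and 1.41 times in the knockdown replicates.

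Levels per kilobase of canonical transcript put the list in order within the control cells. SCD (201 ± 72.5 CPM per kb) and FDFT1 (189 ± 2.94) stood highest and could not be separated given the spread of SCD, followed by DHCR7 (139 ± 29.7) and FADS2 (120 ± 31.7), which differed by less than their spread. SREBF2 (42.8 ± 2.85) and FASN (42.6 ± 3.57) were level in control cells, but in knockdown cells FASN reached 77.6 ± 13.2 CPM per kb while SREBF2 was at 41.4 ± 4.26. SREBF1 (7.25 ± 2.64), INSIG2 (7.21 ± 1.36), ACSS2 (7.16 ± 0.13) and CYP51A1 (6.40 ± 0.22) were lowest in control cells. In knockdown cells SREBF1 (17.5 ± 3.54) and ACSS2 (16.9 ± 0.07) were above INSIG2 (6.44 ± 0.52).

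The listed genes also differed between the replicates of one condition, and mostly in one direction. On the log2 CPM scale, 26 of 33 genes were higher in replicate 1 than in replicate 2 of the control group, with a median difference of 0.157, and 28 of 33 in the knockdown group, with a median of 0.179. Over all genes tested these medians were 0.0129 and 0.00205, and 51.6% and 50.2% of genes were higher in replicate 1. In both groups 25 of the 33 genes were higher in replicate 1, against 38.9% of all genes tested. In the control group the differences were largest for SREBF1 (0.76, and 0.42 in the knockdown group), SCD (0.75 and 0.57) and SC5D (0.60 and 0.38), while PMVK was lower in replicate 1 (-0.40 and -0.25). For 16 of the 33 genes the larger replicate difference exceeded the difference between knockdown and control. None of the 5 called genes was among them, but the call largely sets this. The test weighs the group difference against the spread between replicates.

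Split by role, the median replicate difference was -0.02 in the control and 0.01 in the knockdown group for the mevalonate enzymes, and 0.32 and 0.24 for the squalene and sterol ring enzymes. It was 0.39 and 0.21 for the regulators and 0.18 and 0.37 for the fatty acid enzymes. Across the 33 genes, the differences in both groups had a Pearson's r of 0.863 and a Spearman's rho of 0.863. Pearson's r was 0.479 over all 15356 genes tested and 0.792 over the 9487 tested genes at a mean level of 10 CPM or more. Genes are not independent replicates, so these values describe the 4 libraries. The summed level of the 33 genes was 6663 and 5389 CPM in the control and 7989 and 6503 CPM in the knockdown replicates, with control replicate 1 above knockdown replicate 2.

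**Figure D4:**
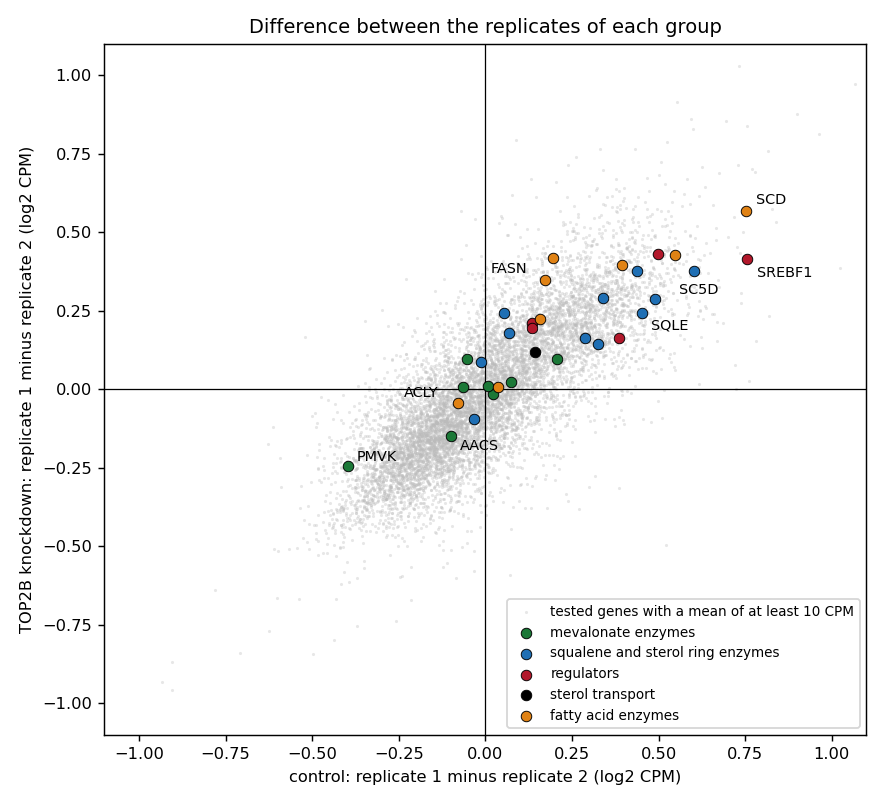
Difference between replicate 1 and replicate 2 (log2 CPM) in the control group (horizontal axis) and in the TOP2B knockdown group (vertical axis), for the 33 genes coloured by role and, in grey, tested genes at a mean level of 10 CPM or more. Most coloured points lie in the upper right quadrant, 25 of 33 with both values above 0, with SCD (0.75 and 0.57) and SREBF1 (0.76 and 0.42) farthest to the right.

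Proliferation markers were also higher. All 7 had positive values and 4 were called higher (CDK1, MCM2, MCM5 and PCNA, 0.41 to 0.72), beside 6.66% of all genes tested. The summed level of the 7 markers was 1593 and 1411 CPM in the control and 2238 and 1923 CPM in the knockdown replicates. None of the 7 was at 0. Their summed level was also higher in replicate 1 of each group, carried by MKI67 and TOP2A, whereas the 4 called markers were lower in replicate 1 than in replicate 2 of both groups. By PI staining, the authors found cell cycle progression unaltered after TOP2B depletion. The part of proliferation in the changes of the lipid genes was not tested.

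Other lipid genes were read from 5 lists, which together held 106 genes with 97 tested. Of these, 7 were called higher and 3 lower, beside 6.66% and 4.18% of all genes tested, and the median log2(fold change) was 0.03. None of the 12 partners in SREBP processing (proteases, ubiquitin ligases and anchors of the endoplasmic reticulum and Golgi) was called by edgeR, with a median of -0.01 and 3 genes at an unadjusted p below 0.05, while DESeq2 called 1 lower. The 20 genes of isoprenoid and sterol side branches had a median of -0.00055, with 10 positive and 10 negative values.

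Of 19 tested genes of sterol efflux, esterification and transport, 1 was called higher and 1 lower. NPC1, which exports cholesterol from lysosomes, rose from 139 and 103 CPM to 250 and 188 CPM (0.85, adjusted p = 0.0167), with no overlap between the groups. VLDLR, a lipoprotein receptor, fell from 51.1 and 38.6 CPM to 31.0 and 24.7 CPM (-0.69, adjusted p = 0.0278). Of 29 tested genes of other fatty acid and glycerolipid synthesis, the elongase ELOVL2 (0.58, adjusted p = 0.0365) and the citrate carrier SLC25A1 (0.46, adjusted p = 0.0496) were called higher and the elongase ELOVL1 lower (-0.61, adjusted p = 0.0191). Beside both lists, 6.66% of all genes tested were called higher and 4.18% lower.

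Among 17 tested genes of fatty acid oxidation and its regulators, 4 were called higher and none lower, beside 6.66% and 4.18% of all genes tested. The median of the list was -0.07. CPT1A, which links fatty acids to carnitine for entry into mitochondria, had 29.4 and 29.0 CPM in the control and 56.8 and 55.1 CPM in the knockdown replicates (0.94, adjusted p = 0.00169). The acyl-CoA dehydrogenase ACADVL rose by 0.61 (adjusted p = 0.0186). ACADS, a dehydrogenase for short chains, had the largest value (1.45, adjusted p = 0.0288), but on 14 to 57 counts per library. The fourth gene, the lipid droplet protein PLIN2 (0.52, adjusted p = 0.0499), was near the threshold and falls outside the rule for named genes.

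**Figure D5:**
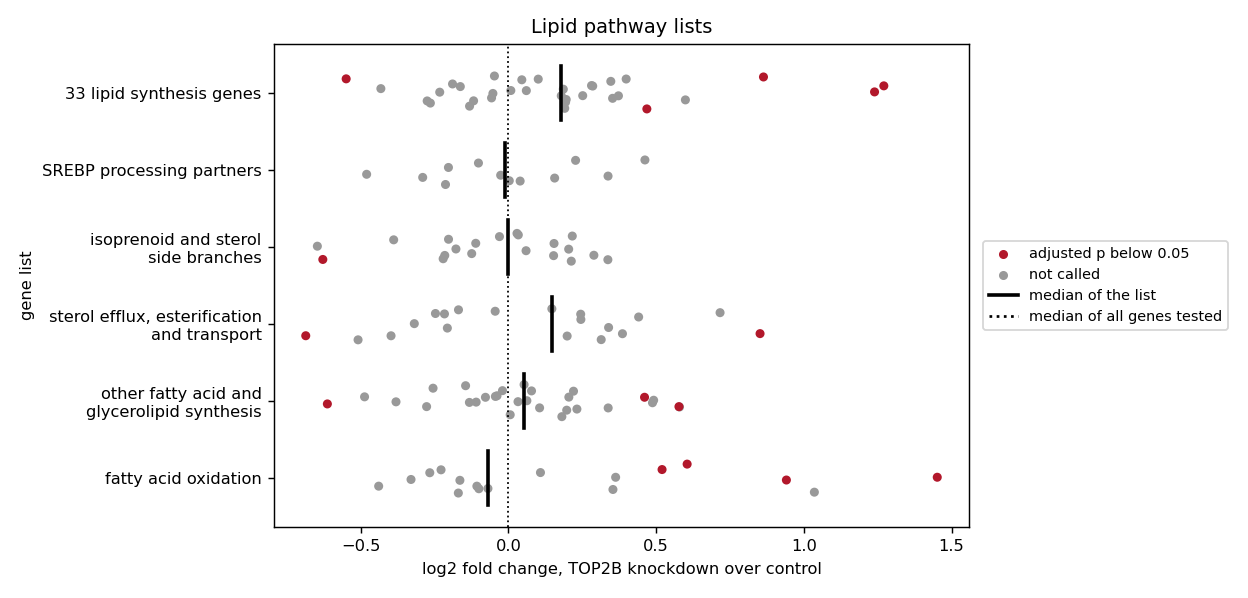
Log2(fold change) of TOP2B knockdown over control for the tested genes of the 33-gene list and of 5 other lipid lists, with called genes in red, other genes in grey, the median of each list as a bar and the median of all tested genes as a dotted line. The median was 0.18 for the 33 genes and between -0.07 and 0.15 for the other lists, and each list but the processing partners holds called genes.

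The 6-base word GCAACC was searched in 3′ UTRs of at least 50 bases, a word chosen with its share among the called genes already known. It was present in 39.3% of 936 genes called higher, 19.8% of 606 called lower and 22.5% of 10843 genes not called. Of the 33 listed genes 6 held it (18.2%), namely FDFT1, LSS, MSMO1, DHCR7, INSIG2 and ELOVL6. None of the 5 called genes of the list was among them, judged by the canonical transcript.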

How the data were processed

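RNA was read as single-end 65-bp reads. Per the labels and methods, the authors checked reads with FastQC 0.11.6, aligned them to GRCh38 with STAR 2.5.4a and deposited raw counts per gene on the Gencode v24 annotation, without normalization. The count table held each library as 2 identical columns, and the 4 further columns were not used. Column names carry a stranded paired-end tag, and the strand setting is not given in the sources used here.

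Genes that reached 10 counts in 2 or more libraries were fitted in edgeR 4.0.16 (R 4.3.3) with TMM scaling and the quasi-likelihood test on condition alone, with Benjamini-Hochberg adjustment over all 15356 genes. The common dispersion was 0.0117. Calls were made at an adjusted p below 0.05. Log2 CPM used a prior count of 2. Symbols, positions, exon overlap and transcript lengths came from GENCODE v44, and promoters from RefSeq. P-values and intervals measure the spread between these libraries only. Alternatives were DESeq2 1.42.0, its size factors, library size alone, no filter, a mean of at least 100 counts, a replicate block and fits without each library. The statistics were tested on simulated data. The members and lists were chosen with earlier results of these data known. Named genes were every called listed gene, the 5 regulators, FASN, SCD, SQLE, HMGCS1 and TM7SF2, the largest absolute change in each role, TOP2B, LBR, and up to 3 called genes per direction in each other list. ELOVL6, AACS, STARD4 and PLIN2 were named beyond it after their values were seen, or as the only member of a role. A result that this rule would name is not reported here.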

Additional observations from a re-analysis of the deposited data

How the results depend on the processing

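The same 5 genes were called with the size factors of DESeq2 and with library size alone. ACSS2, SREBF1, FASN and HMGCS1 were called under every alternative that kept all libraries. In fits without one library, the lone library is assumed to vary like the other group. Calls kept or lost there therefore do not settle how robust a gene is. The Wald test of DESeq2 called 2 listed genes lower, ELOVL6 being the addition, and so did edgeR without a filter, which also added SCD (adjusted p = 0.00141). At a mean of at least 100 counts SCAP was lost (adjusted p = 0.0502). In fits without one library each, the listed genes called numbered 2 to 5 higher and 0 to 1 lower, their median log2(fold change) ranged from 0.0563 to 0.226, and the other lipid genes called numbered 4 to 11 higher and 2 to 7 lower, with a median of -0.0239 to 0.0677. Only ACSS2 and SREBF1 of the list were called without knockdown replicate 1.

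Over all genes, 985 were called lower without a filter. Among the other lipid genes, 14 were called higher and 7 lower without a filter, 3 higher at a mean of at least 100 counts, and 5 lower by DESeq2. The looser sterol word was present in 10 genes rather than 1. Signs turned for uncalled genes alone, with these ranges over the fits without one library: SQLE -0.162 to 0.289, TM7SF2 -0.145 to 0.18 (and -0.0066 by DESeq2), SC5D -0.327 to 0.275, SREBF2 -0.151 to 0.0394, INSIG2 -0.343 to 0.0448, DHCR7 -0.0066 to 0.431, ACACA -0.0266 to 0.373, CYP51A1 -0.141 to 0.0194 and LBR -0.43 to 0.0354. The cause was not tested, other than that these fits hold fewer samples.

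The labels number the replicates 1 and 2 in both groups but tie them to no shared day or culture. Same-numbered libraries deviated together (r = 0.479 over 15356 genes and 0.863 over the 33). With the replicate block, 16 listed genes were called higher and 8 lower (6 of the 11 squalene and sterol ring enzymes among them), 33 other lipid genes higher and 26 lower, and 3440 genes of all higher and 3346 lower. Listed genes called only in this way or in few other fits included SCD, FADS1, FADS2 and INSIG1 with positive values and ELOVL6 and STARD4 with negative values. With 2 libraries per group, small changes can be missed.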
